A study of Mus musculus with 4 samples.

Results

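Of 6649 SMC3 summits that passed a false discovery rate (FDR) of 0.001 on autosomes 1 to 19 of mouse spermatocytes, 3977 had no SMC1B-LAP summit within 5000 bp, even in the loosest SMC1B-LAP list, called at an FDR of 0.5. With the SMC1B-LAP list at an FDR of 0.1 the number without one was 5124, or 77.1%. The 3977 are called unpaired summits here. The strict SMC3 list holds 7315 summits over all chromosomes. Unpaired summits were compared with the 1502 strict autosomal summits that had an SMC1B-LAP summit within 500 bp, called paired, and less often with the 1170 whose nearest SMC1B-LAP summit lay 500 to 5000 bp away, called intermediate. All 3 sets were defined by the summit positions of these lists, so the size of each set and its distance to SMC1B-LAP are descriptions and not findings.

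The series holds 4 chromatin immunoprecipitation sequencing (ChIP-seq) libraries from testes of C57BL/6 mice, all of which carried Smc1b with a LAP tag at the N-terminus. The LAP tag is a localization and affinity purification tag that contains GFP. Cells were fixed with 1% formaldehyde and sorted for GFP, so both libraries come from cells that made the tagged protein. One library was precipitated with a rabbit polyclonal antibody against SMC3 and one with a goat polyclonal antibody against GFP, and each has an input library, not analysed here. Sorted cells were pooled, and the stage of meiosis, the number of animals and the promoter that drives the construct are not given in the labels. Each target has 1 library, so no value has a replicate check, and no tests are given. Intervals are exact 95% intervals (binomial for shares, Poisson for summits per Mb). They cover counting error only and treat neighbouring summits as independent.

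Cohesin is a ring built from an SMC1 and an SMC3 subunit, a kleisin and a STAG protein, and it holds sister chromatids together and shapes chromosome loops. SMC3 is part of every cohesin ring. Its partner is SMC1A in somatic cells, and germ cells in meiosis also make SMC1B, which assembles with SMC3 into rings along the chromosome axes. The question here is what the SMC3 sites without detected SMC1B-LAP look like. Any SMC1B without the tag would not be seen with the antibody against GFP. SMC1A and the kleisins were not measured in the libraries analysed.

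A score is given for each summit in the deposited lists, the −log10 of the q-value from the peak caller. It measures the significance of a peak, which also depends on read depth and local background, and not the size of the enrichment. Strong and weak refer to this score only. Unpaired summits had a median SMC3 score of 4.96, with a lower quartile of 3.66 and an upper quartile of 7.54. Paired summits had a median of 8.36 (quartiles 4.68 and 16.6), and intermediate summits 4.36 (quartiles 3.56 and 5.93). The distributions overlapped over most of their range, from a lowest score of 3.01 in unpaired and 3.02 in paired summits to highest scores of 80.9 and 116. Among the unpaired summits 2096 of 3977 scored under 5, 1278 scored 5 to 10, 491 scored 10 to 20, 110 scored 20 to 50 and 2 scored 50 or more.

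The unpaired share was lower at higher SMC3 scores, where the paired share was higher and the intermediate share lower. The unpaired share over all strict summits was 59.8% (58.6% to 61.0%). It was 64.4% (62.7% to 66.0%) of the 3256 summits with scores under 5 and 61.5% (59.3% to 63.6%) of the 2079 with scores of 5 to 10. It was 54.2% (50.9% to 57.5%) of the 906 at 10 to 20, 31.0% (26.2% to 36.1%) of the 355 at 20 to 50, and 2 of 53, or 3.77% (0.460% to 13.0%), at 50 and over. Over the same classes the paired share, 22.6% of all strict summits, went from 13.6% through 20.9%, 37.7% and 65.4% to 94.3%. The intermediate share, 17.6% over all, went the other way, from 22.0% through 17.7%, 8.06% and 3.66% to 1.89%. Among the highest 100 summits 8 were unpaired, among the highest 500 there were 147, and among the highest 1000 there were 416. For scale, 86.2% of the autosomal extent lay over 5000 bp from every SMC1B-LAP summit, more than the unpaired share in any score class.

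**Figure D1:**
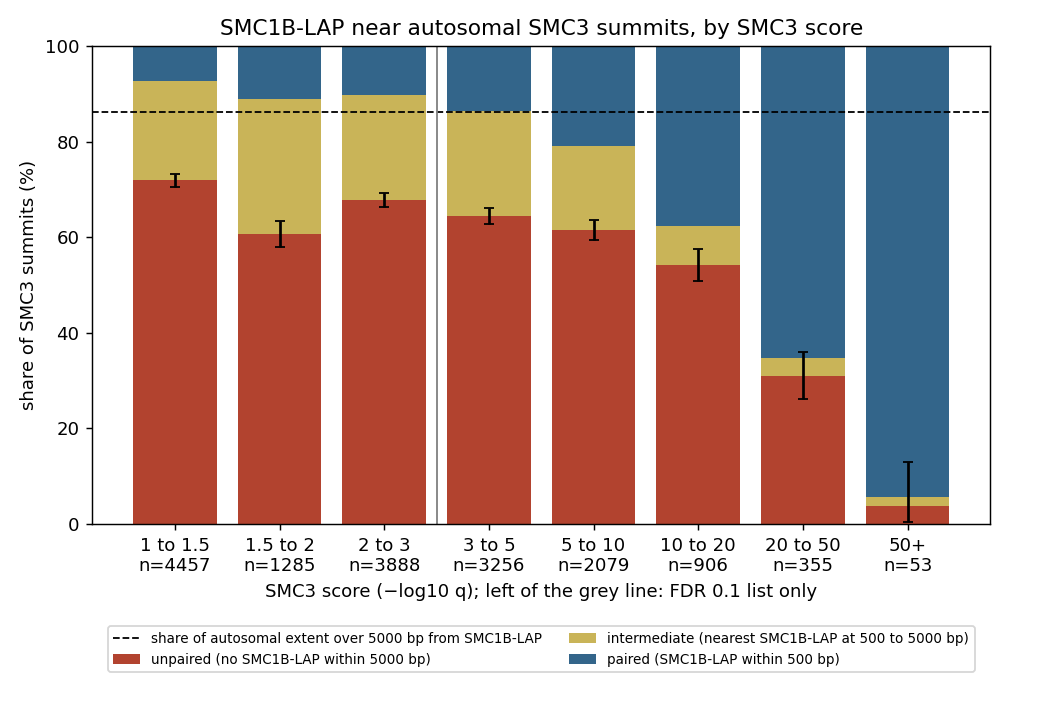
Share of autosomal SMC3 summits (%) that were unpaired, intermediate or paired, by SMC3 score class, with exact 95% intervals on the unpaired share and the number of summits under each bar. The unpaired share is 64.4% at scores of 3 to 5 and 3.77% at 50 and over, below the dashed line at 86.2%, the share of the autosomal extent over 5000 bp from SMC1B-LAP.

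Weaker SMC3 summits, which entered only the FDR 0.1 list and not the rule, continued this order in part. Of 9630 such autosomal summits 6618, or 68.7% (67.8% to 69.6%), had no SMC1B-LAP summit within 5000 bp, and 8.99% had one within 500 bp. The share without one was 71.9% at scores of 1 to 1.5, 60.7% at 1.5 to 2 and 67.7% at 2 to 3, so the order was not even among weak summits.

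Strong SMC3 summits were mostly paired, fewer were unpaired, and few were intermediate. Of the 408 summits with scores of 20 or more, 282 were paired, 112 were unpaired and 14 were intermediate. Once paired summits are set aside, 112 of the other 126, or 88.9% (82.1% to 93.8%), had no SMC1B-LAP summit within 5000 bp. Of the autosomal extent over 500 bp from SMC1B-LAP, 87.6% is also over 5000 bp from it, which lies inside that interval. In the same count 2096 of 2812 weak summits with scores under 5 were unpaired, 74.5% (72.9% to 76.1%), which is lower than the extent. These shares rest on the distances that defined the sets and are given as a description.

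**Figure D2:**
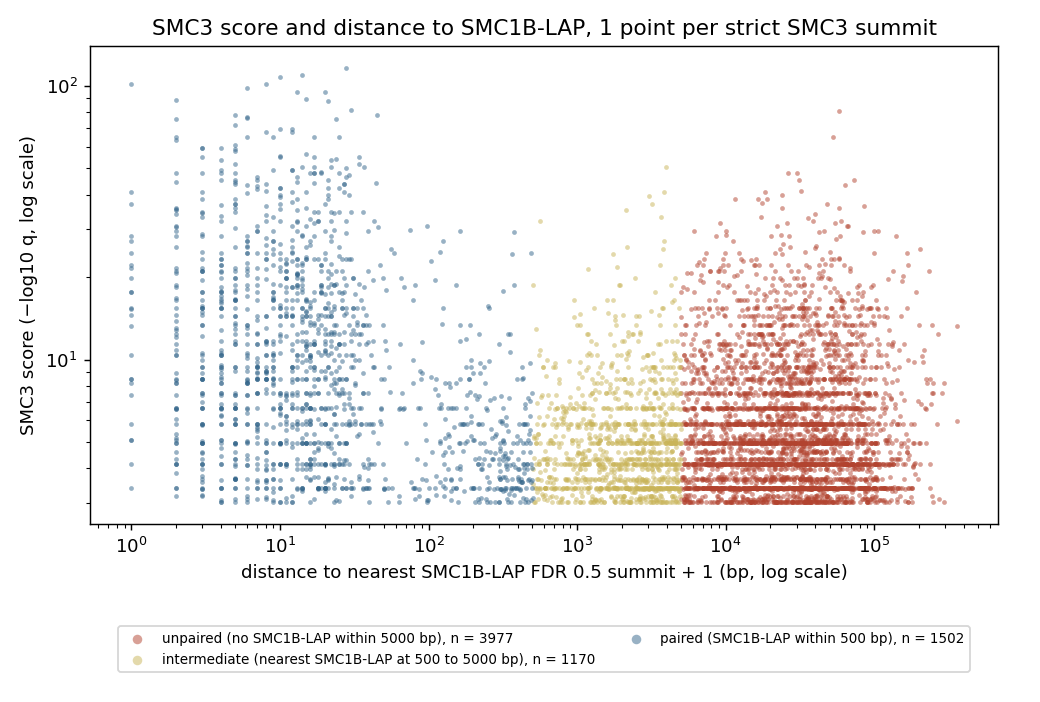
SMC3 score (log scale) of each strict autosomal SMC3 summit against its distance to the nearest SMC1B-LAP FDR 0.5 summit plus 1 bp (log scale), coloured by set. High scores sit in a dense column within 50 bp of SMC1B-LAP and in a broader cloud of unpaired summits whose median distance is 27212 bp, with few between.

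Pairing, where it occurred, was tighter at strong sites, and the median SMC1B-LAP score of the partner was higher at higher SMC3 scores. Of the 1502 paired summits 1179 had their partner within 50 bp, and the median distance was 15 bp. The share within 50 bp was 266 of 444 at SMC3 scores under 5 and 221 of 232 at scores of 20 to 50. The median SMC1B-LAP score of the partner was 1.04 at SMC3 scores under 5, 1.07 at 5 to 10, 1.58 at 10 to 20, 2.76 at 20 to 50 and 8.44 at 50 and over. A single SMC1B-LAP score, 0.406, is shared by 26039 of the 38022 autosomal summits of the FDR 0.5 list. Partners at that score made up 28.9% (26.6% to 31.3%) of all 1502, against 68.5% of that list, and 63.4% (61.0% to 65.9%) of partners scored 1 or more. The tied partners were 37.6% (33.1% to 42.3%) of the partners at SMC3 scores under 5, and 14.2% (10.0% to 19.4%) at 20 to 50, and 1 of 50 at 50 and over. For an unpaired summit these lists do not tell apart SMC1B-LAP that is absent from SMC1B-LAP that is present below the list threshold.

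The 20 highest-scoring unpaired summits had SMC3 scores from 33.3 to 80.9 and ranked between 13 and 157 among all strict autosomal summits. All 12 strict autosomal summits with scores above the highest of them were paired. The highest, at position 31866062 of chromosome 13 (mm9), had a score of 80.9. Its nearest SMC1B-LAP summit lay 58064 bp away with a score of 0.406, and its nearest other SMC3 summit 101730 bp away. The next, at position 98318214 of chromosome 12, scored 64.8. It lay 52611 bp from an SMC1B-LAP summit with a score of 1.07 and 65888 bp from another SMC3 summit. These were the only unpaired summits with a score of 50 or more, and both lay over 50 kb from any other listed summit of either protein.

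Summits with a score of 47.8 followed at 102187736 of chromosome 14 and 67244718 of chromosome 5, with SMC1B-LAP at 30364 and 26218 bp. Scores from 41.1 to 45.2 were found at 36864901 of chromosome 14, 48371923 of chromosome 6, 20929308 of chromosome 2, 95593807 of chromosome 15 and 20121668 of chromosome 17. Scores from 37.1 to 39.8 were found at 5969487 and 27695391 of chromosome 3, 91514228 of chromosome 7, 190136729 of chromosome 1, 89674119 of chromosome 14 and 37655267 of chromosome 9. The last of the 20, with scores from 33.3 to 36.3, lay at 60271298 of chromosome 13, 9354837 of chromosome 14, 121002488 of chromosome 3, 129434994 of chromosome 7 and 84133192 of chromosome 1. They were spread over 12 autosomes, with 4 on chromosome 14 and 3 on chromosome 3.

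Across these 20 the nearest SMC1B-LAP summit lay between 11559 and 85811 bp away, with a median of 30811 bp, and none was within 10 kb. Over all unpaired summits the median was 27212 bp, and 15.7% had one at 5 to 10 kb. In 16 of the 20 the nearest summit had the most frequent score of 0.406, against 70.4% of all unpaired summits. The highest score among the 20 nearest was 1.07. The nearest SMC1B-LAP summit of the FDR 0.1 list lay 26090 bp away or farther, with a median of 114122 bp. The 5 highest paired summits, with SMC3 scores from 101 to 116, lay 0 to 27 bp from their SMC1B-LAP partner. Both sets of distances follow from the rule, and the SMC3 scores differ, so they are a description and not a contrast. These partners scored 1.79, 44.8, 8.44, 11.1 and 36.5 in order of the SMC3 score.

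The whole group of 112 unpaired summits with scores of 20 or more was spread widely. It had between 1 and 11 summits on each of the 19 autosomes, 12 in the first of 10 equal parts of the autosomes and 11 in the last. Their median distance to SMC1B-LAP was 26410 bp, and 92 of them had none within 10 kb, 32 none within 50 kb and 10 none within 100 kb. For all unpaired summits the median was 27212 bp, with 15.7% at 5 to 10 kb and 6.39% over 100 kb. The first and last parts held 9.63% and 10.1% of all unpaired summits.

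Distance to SMC1B-LAP varied over a wide range among unpaired summits and hardly with their SMC3 score. The nearest SMC1B-LAP summit lay at 5 to 10 kb in 625 of 3977, at 10 to 20 kb in 870, at 20 to 50 kb in 1463, at 50 to 100 kb in 765 and beyond 100 kb in 254. The median was 27212 bp (quartiles 13987 and 50752 bp). By score class the median was 27226 bp at scores under 5, 26863 bp at 5 to 10, 28573 bp at 10 to 20 and 26276 bp at 20 to 50. The nearest SMC1B-LAP summit had a score of 1 or more in 951 of 3977, and 70.4% (68.9% to 71.8%) of the nearest had the most frequent score, close to its 68.5% of the list.

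The 5 farthest unpaired summits had SMC3 scores from 3.02 to 13.2. The summit at position 115538410 of chromosome 6, with a score of 13.2, lay 359022 bp from any SMC1B-LAP summit. Position 140727750 of chromosome 7, with a score of 5.95, lay 358783 bp away and had another SMC3 summit 584 bp from it. Next came 46148985 of chromosome 17 (score 8.18, 295903 bp), 131663042 of chromosome 7 (score 3.02, 295099 bp) and 120350026 of chromosome 5 (score 7.54, 286876 bp). At the other end, the summits just past the limit of 5000 bp lay at 5003, 5004 and 5008 bp, with SMC3 scores of 17.7, 14.4 and 7.54. Those just within it lay at 4996, 4988 and 4975 bp, with scores of 4.96, 5.59 and 4.35. The limit therefore parts summits that differ by a few bases. Around all strict summits SMC1B-LAP had 24.8 summits per Mb at 4 to 5 kb and 21.9 at 5 to 7.5 kb.

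Beyond the 5000 bp that the rule clears, SMC1B-LAP summits around unpaired summits of all scores were slightly denser than the autosomal mean. Around unpaired summits with scores of 10 or more the value at 5 to 50 kb was near that mean, at 15.3 per Mb (14.3 to 16.4). Around the same summits it was 17.1 (13.9 to 20.7) at 5 to 10 kb and 16.9 (15.9 to 18.0) at 50 to 100 kb. At 5 to 10 kb from all unpaired summits there were 18.4 SMC1B-LAP summits per Mb (17.0 to 19.7), and at 50 to 100 kb there were 17.5 (17.1 to 17.9). The autosomal mean was 15.7 per Mb (15.5 to 15.9). Around paired summits the values were 22.3 (20.0 to 24.8) at 5 to 10 kb and 18.4 (17.7 to 19.1) at 50 to 100 kb. Around intermediate summits they were 32.7 (29.5 to 36.2) and 25.7 (24.8 to 26.7). Rings of neighbouring summits overlap. Clearing 5000 bp around a summit selects against dense stretches, and how much of this order comes from the rule was not tested.

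**Figure D3:**
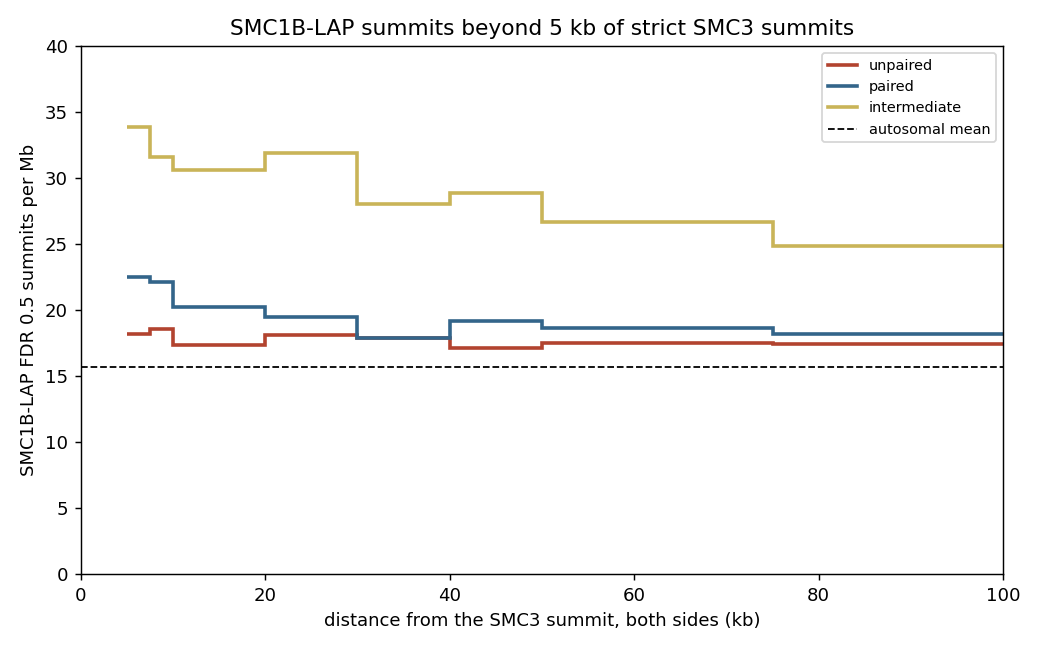
SMC1B-LAP FDR 0.5 summits per Mb against distance from the SMC3 summit (5 to 100 kb, both sides) for unpaired, paired and intermediate strict summits. The unpaired line stays nearly flat, at 18.4 per Mb for 5 to 10 kb and 17.5 for 50 to 100 kb, and the dashed line is the autosomal mean of 15.7.

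The surroundings were then compared within score ranges. At SMC3 scores of 10 or more, SMC1B-LAP had 15.3 summits per Mb (14.3 to 16.4) at 5 to 50 kb from 603 unpaired and 17.1 (16.0 to 18.2) from 624 paired summits. For other SMC3 summits of the FDR 0.1 list the same rings held 7.59 per Mb (6.88 to 8.36) and 7.62 (6.92 to 8.38). At scores under 5 there were 18.0 (17.4 to 18.6) SMC1B-LAP summits per Mb around unpaired and 22.0 (20.6 to 23.5) around paired summits. For SMC3 these were 7.91 (7.52 to 8.33) and 11.1 (10.1 to 12.1). At scores under 5 the values were thus lower around unpaired than around paired summits for both proteins, and the intervals did not overlap. At 10 or more the SMC1B-LAP value was lower around unpaired summits but the intervals overlapped, and the SMC3 values were close. Rings of neighbouring summits overlap, so a listed summit can be counted more than once, and these intervals can be too narrow. The SMC1B-LAP list counted here also defined the sets, and clearing 5000 bp selects against dense stretches. These differences were not tested. The autosomal mean of SMC3 FDR 0.1 summits was 6.75 per Mb.

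Closer SMC3 neighbours were counted next. Another SMC3 summit of the FDR 0.1 list lay within 5000 bp of 488 of 3977 unpaired summits, 12.3% (11.3% to 13.3%), against 16.6% over all strict summits. Paired summits had such a neighbour in 15.8% (14.0% to 17.7%) and intermediate summits in 32.2% (29.5% to 35.0%). At SMC3 scores under 5 the share was 14.1% (12.7% to 15.7%) for unpaired and 23.9% (20.0% to 28.1%) for paired summits, and at 5 to 10 it was 11.3% (9.59% to 13.1%) and 18.2% (14.7% to 22.2%). At 10 to 20 it was 8.15% (5.88% to 10.9%) and 8.19% (5.51% to 11.6%), and at 20 to 50 it was 7.27% (3.19% to 13.8%) and 9.05% (5.69% to 13.5%). Within 500 bp an SMC3 neighbour was found for 2.11% of unpaired and 3.79% of paired summits, against 3.32% of all strict summits. Unpaired summits with scores under 10 thus had an SMC3 neighbour within 5000 bp at a lower share than paired ones of like score. Intermediate summits had one in 34.9% (31.4% to 38.5%) at scores under 5 and 29.4% (24.8% to 34.4%) at 5 to 10. At scores of 10 to 50 the values of unpaired and paired summits were close or their intervals wide. The rule clears the same 5000 bp of SMC1B-LAP and so selects against dense stretches. How much of these differences comes from the rule was not tested. The median distance to the nearest other SMC3 summit was 48771 bp for unpaired, 44252 bp for paired and 19617 bp for intermediate summits.

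**Figure D4:**
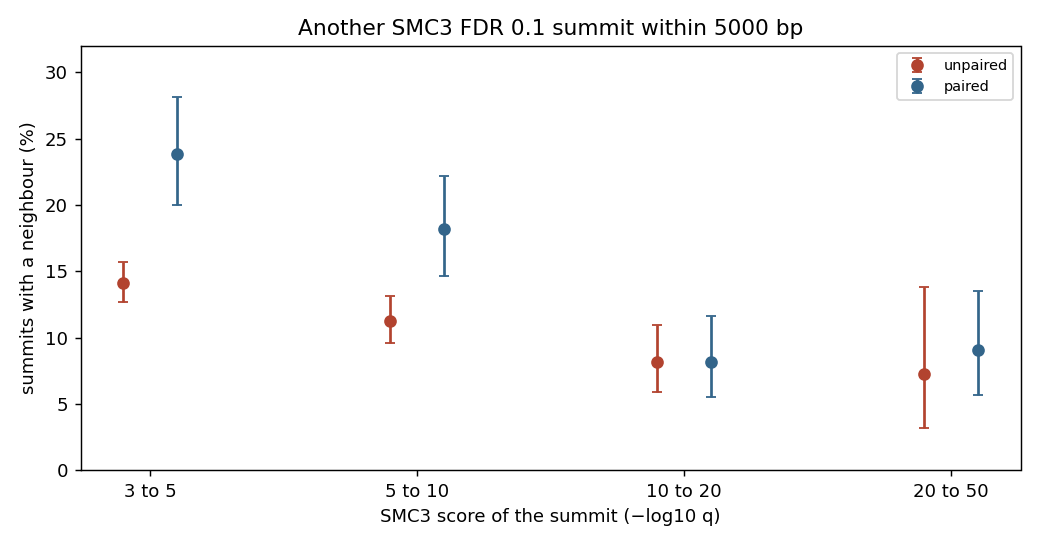
Share (%) of unpaired and paired strict summits with another SMC3 FDR 0.1 summit within 5000 bp, by SMC3 score class, with exact 95% intervals. The values are 14.1% and 23.9% at scores of 3 to 5, and 8.15% and 8.19% at 10 to 20.

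On a fixed grid of 100 kb unpaired summits occupied 3594 windows, of which 3249, or 90.4%, held 1, 309 held 2, 34 held 3 and 2 held 4. Of the 1405 windows with a paired summit 94.4% held 1, and of the 5535 windows with any strict summit 83.8% held 1 strict summit. The sets differ in size, which bears on these shares. Another SMC3 FDR 0.1 summit lay within 50 kb of 50.8% of unpaired and 54.7% of all strict summits. The windows with 4 were that of chromosome 11 from 13.2 to 13.3 Mb, where the highest SMC3 score was 9.16, and that of chromosome 4 from 143.2 to 143.3 Mb, where it was 5.79. Neither held any other strict summit. The windows with 3 that came first by chromosome name were those from 85.1 Mb on chromosome 1, which held 6 strict summits in all, and from 23.1 and 52.9 Mb on chromosome 10. In the 16 windows that held 5 or more strict summits, 18 of 102 summits were unpaired, 17.6% (10.8% to 26.4%), against 59.8% of all strict summits. Summits in the same window can share a nearby SMC1B-LAP summit, and the rule selects against dense stretches. How much of this difference comes from that was not tested. The fullest of them, on chromosome 5 from 14.9 to 15.0 Mb, held 12 strict summits of which 3 were unpaired.

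Among runs of unpaired summits with neighbours at most 5000 bp apart there were 74 runs of 2 and 10 runs of 3, and none was longer. Runs were counted for unpaired summits only. Whether strict summits in general form more or fewer runs was not tested, so these counts are a description. The runs of 3 that came first by chromosome name were on chromosome 1 from 85141917 to 85144891, with scores of 3.73 to 4.60, and on chromosome 10 from 23179835 to 23181279, with scores of 4.07 to 5.81. Others lay on chromosome 10 from 120602807 to 120605531, on chromosome 14 from 113418635 to 113423769 and on chromosome 16 from 77117300 to 77121530. In the last of these a summit with a score of 14.8 stood between summits that scored 3.66 and 3.73, and on chromosome 10 near 120.6 Mb one with a score of 11.4 stood between 3.37 and 4.56.

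The unpaired share was nearly even over the autosomes. It was highest on chromosome 2, at 289 of 455 summits or 63.5% (58.9% to 67.9%), and on chromosome 18, at 151 of 238 or 63.4% (57.0% to 69.6%). It was lowest on chromosome 14, at 215 of 384 or 56.0% (50.9% to 61.0%), and on chromosome 12, at 194 of 342 or 56.7% (51.3% to 62.0%). The intervals of all 19 autosomes include the pooled 59.8%. X and Y are outside the rule. On Y 5 of 43 strict summits, 11.6% (3.89% to 25.1%), had no SMC1B-LAP summit within 5000 bp. On X 261 of 623 had none, 41.9% (38.0% to 45.9%). Leaving out the 17 windows of X with 5 or more strict summits gave 52.3% (47.7% to 56.8%) of 484, against 60.5% for the autosomes without such windows.

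**Figure D5:**
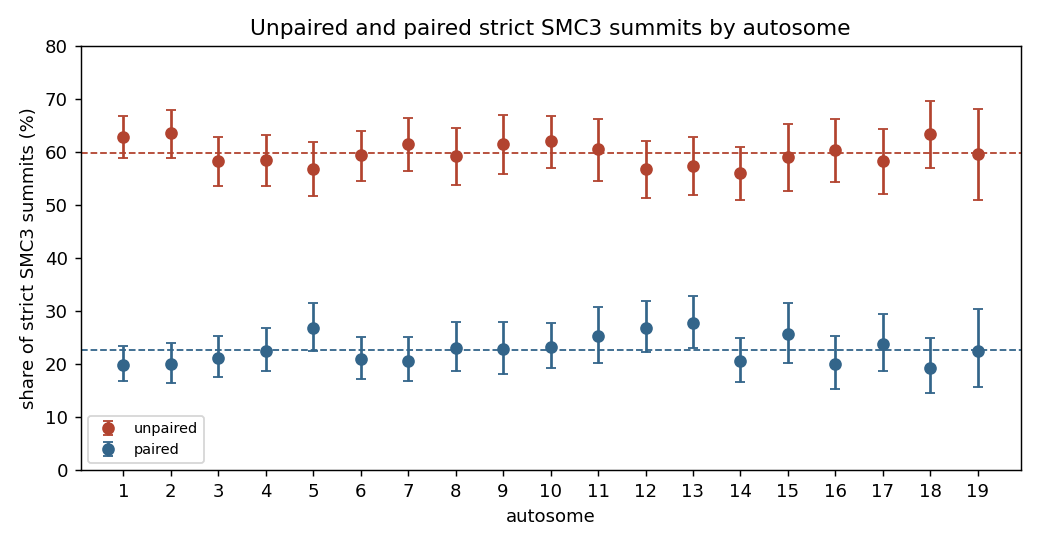
Share (%) of strict SMC3 summits that were unpaired or paired on each of the 19 autosomes, with exact 95% intervals and dashed lines at the pooled shares of 59.8% and 22.6%. The unpaired share runs from 56.0% on chromosome 14 to 63.5% on chromosome 2.

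Along the autosomes, which have their centromere where coordinates start, unpaired summits were spread evenly. Each of 10 equal parts of the extent held between 9.18% and 10.7% of them, and the first part held 9.63% (8.73% to 10.6%). Paired summits ranged from 7.92% to 11.9% per part. As a share of the strict summits there, unpaired summits made up 53.6% (49.9% to 57.3%) in the first part, 56.0% (52.3% to 59.6%) in the next and 64.8% (60.9% to 68.7%) in the third. In the parts after these the share lay between 58.2% and 62.9%. The median score of unpaired summits was 5.79 in the last part, against 4.95 to 5.08 in the others.

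SMC1B-LAP summit names carry running numbers of a longer call, which follow position and reach 1510666, so the numbers skipped between listed summits count calls that did not pass FDR 0.5. Between the nearest listed summits over 5000 bp to the left and to the right, unpaired summits had a median of 0.605 unlisted calls per kb (quartiles 0.550 and 0.663). Paired summits had 0.603 and intermediate ones 0.603, and the autosomal mean was 0.597 per kb. By score class the median around unpaired summits was between 0.600 and 0.609 per kb. The stretch spanned a median of 118515 bp, and every one of the 3975 unpaired summits with listed neighbours on both sides had at least 2 unlisted calls in it. Where in the stretch these calls lay is not recorded, so these rates say nothing on calls at or close to the SMC3 summit itself.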

How the data were processed

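The deposited lists hold 1-base summits with a score, read as the −log10 of the q-value per the file layout. No list has a score under the −log10 of its stated FDR. Bowtie2 0.12.8, MACS2 and the build mm9 are named in the submitters' processing notes. How input, duplicates and multiply mapped reads were treated is not given in the sources used here. Read depth is unknown, since the lists hold no counts.

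Positions are the third column, 1-based mm9. Distances, shares and densities were computed in Python 3.11.15 with numpy 2.4.6, pandas 2.3.3 and scipy 1.17.1. Only nearest distances, the assignment of planted partners to the paired set and a ring count were checked on simulated positions. The extent of an autosome runs from its first to its last SMC3 FDR 0.1 summit. Rings were not trimmed at chromosome ends. Named sites follow a fixed rule: the 20 highest and 5 farthest unpaired summits, the 5 highest paired, 3 on each side of the limit, the 5 fullest windows, up to 5 runs, and the 2 highest and 2 lowest autosomes. X and Y were added after their values were seen. Sets and measures were chosen with earlier results of these data known. No mm9 genome or annotation was used, so no genes or sequences are given at summits.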

Additional observations from a re-analysis of the deposited data

How the results depend on the processing

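There were 8 alternatives. The unpaired count stayed within 1.5 times of 3977 in all but one. With all SMC3 summits of the FDR 0.1 list it was 10595, out of a longer list of 16279. That is a share of 65.1%, against 59.8% in the main setting. There the median score was 2.20 and the unpaired share at scores under 5 was 67.6%. The first part of the autosomes held 10.8% of those unpaired summits. The unpaired share of strict summits was 74.5% with a limit of 1000 bp and 50.4% with 10000 bp. It was 77.1% with the SMC1B-LAP list at FDR 0.1, and between 60.5% and 73.4% in the rest. The unpaired share at scores under 5 and the share with an SMC3 neighbour within 5000 bp were 82.6% and 15.8% with a limit of 1000 bp, and 76.6% and 14.4% with 2000 bp. With 10000 bp the share at scores under 5 was 53.6% and at 20 and over 22.5%. With the SMC1B-LAP list at FDR 0.1 these shares were 82.5% and 40.0%, the neighbour share 13.9% and the density at 5 to 50 kb 4.94 SMC1B-LAP summits per Mb. Without the SMC1B-LAP summits at the most frequent score, an alternative added after seeing the data, they were 78.3% and 37.7%, and the density was 6.11. With 1 SMC3 summit per 10 kb the share at scores under 5 was 66.6% and the neighbour share 10.1%. Without windows of 5 or more strict summits the density was 17.3. In every alternative the unpaired share was lower at scores of 20 and over than under 5. No paired analysis was possible because each target has 1 library. The SMC1B-LAP list limits what can be called unpaired, and its read depth is unknown.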
